A study of Schizosaccharomyces pombe with 30 samples.

Results

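Seb1 crosslinked to 684 uridines that lie in the coding sequence (CDS) of a protein-coding gene, at most 500 nt from the annotated 3′ end of the transcript and at least as near to it as to the transcription start site. These end-proximal CDS sites are 4.33% of the 15789 crosslink sites on the 3 nuclear chromosomes of fission yeast, and the full list holds 15824 sites. They were chosen by position and strand on the RefSeq annotation of ASM294v3, with the longer gene taken where genes overlap, and no measured value entered the choice. They come from 1 PAR-CLIP (crosslinking of photoactivatable nucleosides followed by immunoprecipitation) library of h- cells carrying seb1-TAP at the seb1 locus with a KanMX marker (seb1::seb1-TAP::KanMX). The occupancy of each site was normalised by the authors with 1 RNA-Seq library of h- WT cells. Both cultures grew at 30 °C in CSM minimal medium with 4% glucose, 10 mg/l uracil and 100 μM 4-thiouracil, received another 900 μM 4-thiouracil 4 h before harvest, and were irradiated at 365 nm. The labels give 12 J/cm2 for both cultures, whereas the methods of the study give a lower dose for the RNA-Seq culture. With 1 library there is no replicate, so no test was made, and the 95% intervals cover counting error only.

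Seb1 is an essential RNA-binding protein with a domain that contacts the phosphorylated C-terminal domain of RNA polymerase II and an RRM region that contacts RNA, and it acts in cleavage of pre-mRNA and termination of transcription. In PAR-CLIP, irradiation joins 4-thiouridine in RNA to a protein in contact with it, and the joined base is then read as C, so that a T-to-C transition marks the contacted uridine. The RNA motif associated with Seb1 is UGUA, which in a coding sequence can fall in any reading frame and, since it contains UA, can run into a UAA or UAG stop codon.

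The sequences below show contrasting examples of these sites on ASM294v3, each with 14 nt on either side of the crosslinked base, which is the 15th of 29. Capitals mark UGUA. The first 4 are those with the most transitions and have no UGUA in this window, and the next 3 have a UGUA that runs into the stop codon. Whether the reads at the first 4 hold sequence added in library preparation was not tested, so their transitions may not measure crosslinking.
exg2, chrI:4593148-4593176, plus strand: aaauuaccgacgauuauaggagaguggag
pvg5, chrI:4785410-4785438, minus strand: cgauuccucuacuaucgacgaucaagcca
ain1, chrI:3694745-3694773, plus strand: uaugucacguccgaugaucuauugaggag
scr1, chrII:1755107-1755135, plus strand: cguauaucaucgaaucgacgaucacgcaa
tam10, chrII:2218530-2218558, minus strand: aaagggauugggcaUGUAauuugggguuu
SPCC191.03C, chrIII:1710931-1710959, minus strand: ugauauuuggaccgUGUAgaacgaaaaaa
mfs3, chrII:843498-843526, minus strand: aaauaccguuaauuUGUAauggauaucuu

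The sites were spread thinly over many genes. Of 4008 protein-coding genes with an end-proximal CDS stretch, 559 held at least 1 site, a share of 13.9% (95% Wilson interval 12.9 to 15.1%). Of these genes, 463 held 1 site, 74 held 2, 17 held 3 and 5 held 4 or more, and 0.225% of the 304129 uridines of the stretches were listed. Chromosomes I, II and III carried 303, 272 and 109 sites, with 348 on the plus and 336 on the minus strand. The sites lay 4 to 500 nt from the 3′ end, with a median of 313 nt (95% interval 298 to 321 nt). Measured along the CDS, the median distance to the end of the stop codon was 121.5 nt (111 to 129 nt). The annotated 3′ UTR of the gene had a median length of 145 nt over the sites, and the limit of 500 nt itself gives genes with a short 3′ UTR more CDS to choose from. At 64 sites the gene has no annotated 3′ UTR, so that its annotated 3′ end is the stop codon.

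Most of the sites rested on few reads. A site was covered by 12 reads at the median (quartiles 8 and 21.3), and 432 sites (63.2%) carried 2 transitions, the lowest number in the list. The median share of reads with the transition was 19.4% (18.2 to 20%), against 18.2% over all nuclear sites. RNA-Seq coverage, taken as transitions divided by occupancy, had a median of 110 (98 to 123) at the end-proximal CDS sites and of 54 over all nuclear sites. The median occupancy was 0.0213 (0.0196 to 0.0241), against 0.0515 over all nuclear sites. At 7 sites (1.02%) occupancy was at its maximum of 1, against 5.74% of nuclear sites. The classes most like this one, defined below, were closer to it than all nuclear sites were. Their median occupancy was 0.0256 in start-proximal CDS, 0.0328 in deep CDS and 0.0282 in the 3′ UTR. Of their sites, 1.81%, 0.915% and 1.33% were at the maximum. Since a site needs at least 2 transitions to be listed, the lowest possible occupancy falls as RNA-Seq coverage grows.

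**Figure D1:**
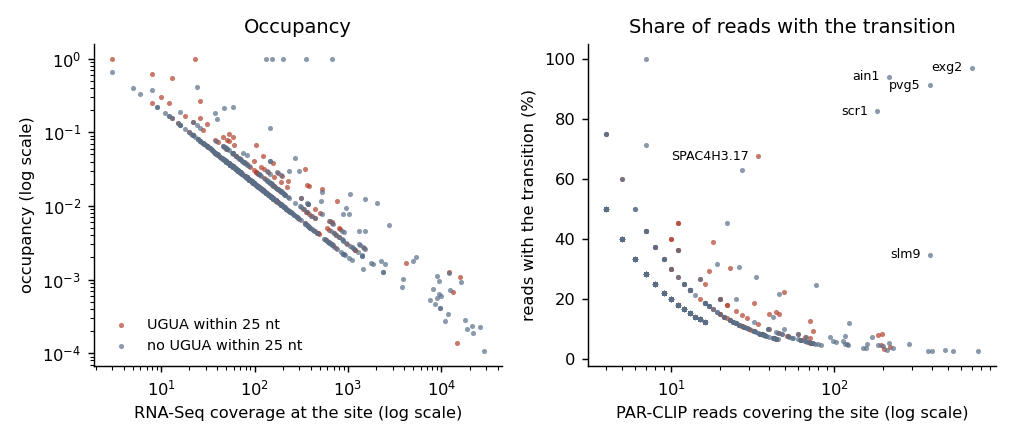
Left, occupancy against RNA-Seq coverage, both on log scales; right, percent of reads with the transition against the reads covering the site (log scale). Each point is 1 of the 684 end-proximal CDS sites, coloured by whether UGUA lies within 25 nt. The lowest diagonal on the left is made of the 432 sites with 2 transitions, the 7 points at occupancy 1 are drawn at their transition count, and the 6 named sites on the right have the largest shares among sites with at least 30 reads.

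Per uridine, end-proximal CDS was crosslinked somewhat more than the deep CDS and less than the CDS near the start or the 3′ UTR. Deep CDS is farther than 500 nt from both transcript ends, and start-proximal CDS is at most 500 nt from the start site and nearer to it. Density was 2.25 sites per 1000 uridines in end-proximal CDS (2.09 to 2.42), against 2.52 (2.38 to 2.68) in start-proximal CDS, 1.91 (1.84 to 1.98) in deep CDS and 3.55 (3.42 to 3.69) in the 3′ UTR. The ratio was 1.18 over deep CDS (1.08 to 1.28, exact binomial interval), 0.891 over start-proximal CDS (0.809 to 0.981) and 0.634 over the 3′ UTR (0.582 to 0.690). Within the 1566 genes that hold all 3 kinds of CDS stretch and at least 1 CDS site, the ratio over deep CDS was 1.45 (1.31 to 1.60) and that over start-proximal CDS 0.874 (0.778 to 0.982). With each site weighted by its occupancy, the ratio over deep CDS turned to 0.958. Among sites with at least 3 transitions it was 1.78, and that over start-proximal CDS was 0.910 with an interval that includes 1 (0.774 to 1.07). Median RNA-Seq coverage was 110 at end-proximal, 100 at start-proximal and 69 at deep CDS sites and 89 at 3′ UTR sites, and the part of transcript abundance in these densities was not tested.

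**Figure D2:**
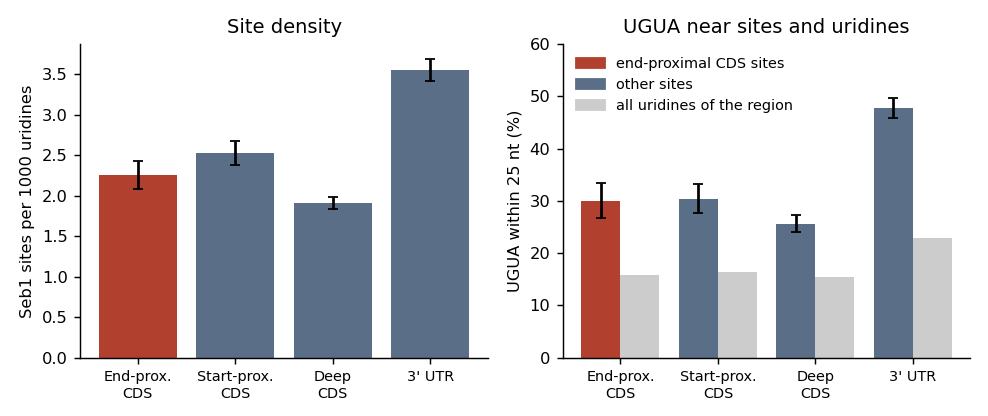
Left, Seb1 sites per 1000 uridines; right, percent of sites and of all uridines with UGUA within 25 nt, in end-proximal CDS, start-proximal CDS, deep CDS and the 3′ UTR. Bars are values of 1 library and error bars 95% Wilson intervals; the UGUA share of end-proximal CDS sites is 30.0%, against 47.7% in the 3′ UTR.

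UGUA lay near a minority of the sites, although more often than near the uridines around them. The motif was derived from these same data, so its counts describe the sites and are no independent evidence. It lay wholly within 25 nt of 205 end-proximal CDS sites, 30.0% (26.7 to 33.5%), against 15.9% of all uridines of the same stretches and 43.4% of nuclear sites. The ratio of the end-proximal CDS sites to the uridines was 1.89 (1.68 to 2.11), where the interval reflects the sites only. Start-proximal CDS gave 1.86 (30.4% of sites, 16.3% of uridines), deep CDS 1.65 (25.6% and 15.5%) and the 3′ UTR 2.09 (47.7% and 22.8%). The higher share of 3′ UTR sites thus went with a higher share among 3′ UTR uridines. When the uridines were taken only from the 559 genes with a site, the ratio for end-proximal CDS was 1.65. Within 10 nt in place of 25 nt, 21.8% of the sites had UGUA and the ratio was 3.24.

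Among the 244 tetramers found near at least 5% of the sites, the 5 with the highest ratio to the uridines all carry UA, and UGUA came second. The ratios were 1.93 for GUAG (1.62 to 2.28), 1.89 for UGUA, 1.61 for UAGU (1.38 to 1.85), 1.58 for AGUA (1.37 to 1.81) and 1.55 for GUAC (1.31 to 1.83). The tetramers share letters and overlap one another in the RNA. GUAG lay near 110 sites and AGUA near 155.

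The crosslink fell on the first base of the motif more than on any other. At 74 sites (10.8%, 8.71 to 13.4%) the crosslinked base was the first U of a UGUA, against 1.13% of the uridines of the stretches. At 2 sites it was the other U of the motif, 0.292% (0.0802 to 1.06%), against 1.11% of uridines. A UGUA that began 1 nt downstream of the crosslinked base occurred at 17 sites (2.49%, against 0.390% of uridines), and one that began 6 or 5 nt upstream at 14 and 13 sites. The arh1 site below shows the most frequent arrangement, with the crosslinked base as the first capital. The dfr1 site shows the next, with a motif that begins 1 nt after the crosslinked base and another that begins 14 nt upstream of that one.
arh1, chrII:3398973-3399001, plus strand: aacauuaaaacaccUGUAauucacuggaa
dfr1, chrIII:1856667-1856695, plus strand: cUGUAugcggcugauUGUAuugacucagc

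**Figure D3:**
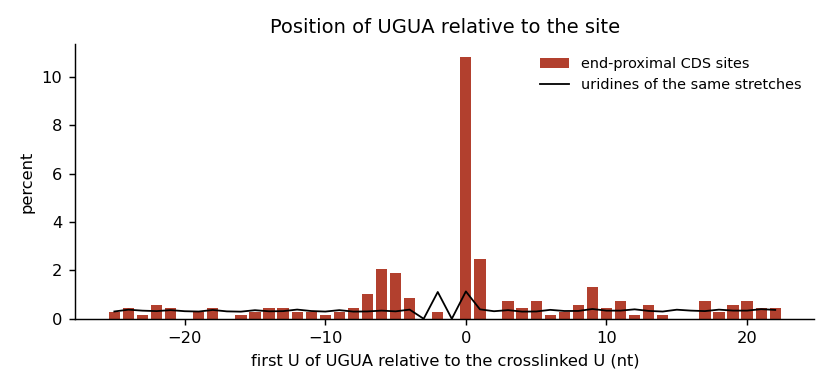
Percent of end-proximal CDS sites (bars) and of all uridines of the same stretches (line) with a UGUA whose first U lies at the given distance in nt from the crosslinked U. The bar at 0 reaches 10.8% while the line is at 1.13%.

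Crosslinked bases were somewhat more often at codon position 3 than the uridines of the stretches. The first U of UGUA was mostly at codon position 3, both in the UGUA near sites and in all UGUA of the stretches. Of 679 sites in genes with an intact reading frame, 21.2% were at codon position 1, 29.7% at codon position 2 and 49.0% at codon position 3, against 25.2%, 31.1% and 43.7% of the uridines. The 95% intervals were 18.3 to 24.4%, 26.4 to 33.3% and 45.3 to 52.8%. The stretches hold 3309 UGUA, of which 199 (6.01%, 5.25 to 6.88%) had a site within 25 nt. Of these 199, the first U was at codon position 1, 2 and 3 in 22.1%, 24.1% and 53.8%, against 23.0%, 23.6% and 53.4% of all 3309.

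Sites were denser toward the stop codon. In the last 150 nt of CDS, 417 sites gave 2.64 per 1000 uridines, against 1.83 for the 267 sites farther upstream, a ratio of 1.45 (1.24 to 1.69). The limit of 150 nt was chosen after the values in bins of 50 nt had been seen. From the stop codon upstream, these were 2.81, 2.46 and 2.63 sites per 1000 uridines in the first 3 bins, and between 1.68 and 2.02 in the bins beyond. UGUA lay near 33.8% (29.4 to 38.5%) of the sites within 150 nt of the stop codon and near 24.0% (19.2 to 29.4%) of those farther away, while the uridines hardly differed (15.8% and 15.9%). In the 2149 genes with an annotated 3′ UTR of at most 200 nt or none, the density ratio was 1.46 (1.21 to 1.75), with UGUA near 35.5% and 22.6% of sites. RNA-Seq coverage had a median of 123 at the sites within 150 nt and of 96 at the others, and its part in the difference was not tested. Distance to the 3′ end gave a different picture. Density was 2.06 (1.20 to 3.52) at 0 to 49 nt from it and 2.05 (1.34 to 3.14) at 50 to 99 nt. These bins hold 13 and 21 sites, and only genes with a short or no annotated 3′ UTR have CDS there. The first bin has uridines of 516 genes, and 385 genes with a stretch have no annotated 3′ UTR. The low values there may therefore reflect missing annotation of the transcript end, which was not tested. The highest density was at 150 to 199 nt (2.99, 2.38 to 3.74), and it was 1.93 (1.67 to 2.23) from 400 nt on.

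The density stepped up at the stop codon. In 2670 genes whose stretch and 3′ UTR both reach 100 nt from it, the last 100 nt of CDS had 2.81 sites per 1000 uridines and the first 100 nt of 3′ UTR 4.58, a ratio of 0.614 (0.520 to 0.722). UGUA lay near 32.1% of the CDS sites and 51.8% of the 3′ UTR sites of these spans, against 15.9% and 24.8% of their uridines. With 200 nt on either side in 902 genes the ratio was 0.588 (0.476 to 0.723). Over all genes, median RNA-Seq coverage was 217 and 165 at 3′ UTR sites 0 to 49 and 50 to 99 nt after the stop codon. At end-proximal CDS sites in the bins of 0 to 49 and 50 to 99 nt before its end, it was 127 and 111. The part of coverage in the step was not tested.

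**Figure D4:**
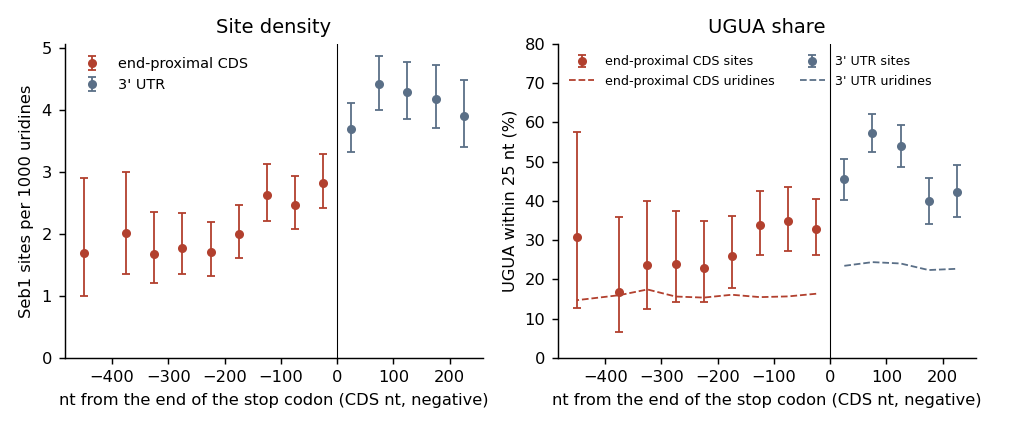
Left, Seb1 sites per 1000 uridines; right, percent of sites (points) and of uridines (dashed lines) with UGUA within 25 nt, in bins of distance from the end of the stop codon, with end-proximal CDS on the left of 0 and 3′ UTR on the right. Error bars are 95% Wilson intervals; CDS density is 2.81 next to the stop codon and 3′ UTR density 3.70.

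The stop codon itself was part of the motif at some sites. A stop codon lay within 25 nt of 86 sites, and at 9 of them (10.5%, 5.60 to 18.7%) a UGUA overlapped it, against 3.83% of the uridines at such distances. All 9 had the first U of the motif 2 nt before the stop codon, with its final UA in UAA or UAG. No other overlap of UGUA with a stop codon is possible, so this position was fixed by sequence. At 7 of the 9 the crosslinked base was that first U. By position, 12 of the 1160 uridines 2 nt before the stop codon were listed (10.3 per 1000, 5.93 to 18.0), against 3 of the 4006 uridines that open a stop codon (0.749, 0.255 to 2.20). Of 3984 genes with a stretch that could be checked, 149 (3.74%) have a UGUA over the stop codon. The 4 such sites with the most reads were in tam10 (3 of 31 reads with the transition, occupancy 0.00836), SPCC191.03C (4 of 16, 0.00901), the protein phosphatase gene pzh1 (2 of 15, 0.0180) and the transporter gene mfs3 (2 of 13, 0.0645). The ura6 gene, for uridylate kinase, had as many reads as mfs3 (3 of 13, 0.00912). Over all 684 sites the quartiles of occupancy were 0.00983 and 0.0394.

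A handful of sites stood far above all others. The 6 sites with the most transitions, 1543 in sum, held 43.7% of the 3527 transitions of all 684 sites, and the next highest site had 22. In exg2, a glucan glucosidase gene, 679 of 700 reads carried the transition (97.0%). In pvg5, a gene of galactose pyruvylation in the Golgi, these were 352 of 386 reads (91.2%), and in ain1, which encodes alpha-actinin, 203 of 216 (94.0%). In scr1, the gene of a glucose-sensing transcriptional repressor, they were 152 of 184 (82.6%), in slm9, which encodes a histone chaperone subunit of the HIR complex, 134 of 385 (34.8%), and in SPAC4H3.17, an uncharacterised gene, 23 of 34 (67.6%). All 6 were at the maximum occupancy of 1, and they were also the 6 with the largest share of reads with the transition among sites with at least 30 reads. The next largest share there was 27.3%. The crosslinked base lay 12 nt (slm9) to 405 nt (exg2) from the end of the stop codon.

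The run CGACGAU, the 7-mer that these 6 sites share most, lay within 14 nt of 4 of them (exg2, pvg5, scr1 and slm9), as can be read in the sequences above and in that of slm9. In ain1 the corresponding bases are CGAUGAU, while SPAC4H3.17 has neither and holds a UGUA. Over all 684 sites 6 had the run within 14 nt (0.877%), against 0.0740% of the uridines of the stretches, and they held 37.5% of the transitions. UGUA lay within 25 nt of 1 of these 6 (16.7%), against 30.1% of the other 678. The run was picked from these same sites, so that the counts describe them only. Whether the reads at these sites are RNA of these genes or hold sequence added in library preparation was not tested, so their transition shares and their 43.7% of transitions may not measure crosslinking.
slm9, chrII:3017935-3017963, plus strand: uuauuacgacgaucugcacuuuuauaguu

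The genes with the most sites had moderate values at each. The dfr1 gene, for a fusion of dihydrofolate reductase and a lysophospholipase-like part, had 6 sites between 64 and 434 nt from the 3′ end, each with 3 or 4 transitions and occupancies of 0.00211 to 0.00503. UGUA lay near 4 of these. The gene rps2202, which encodes a protein of the small ribosomal subunit, had 4 sites with 6, 22, 7 and 7 transitions from 221 to 392 nt, none of them near UGUA. One of these was covered by 762 reads, the highest coverage among the 684 sites, of which 2.89% carried the transition. The gene has a paralogue, so that the assignment of its reads is uncertain, and how the authors treated reads with several matches is not given in the sources used here.

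The gene slm3, for a tRNA-modifying enzyme, had 4 sites, all with UGUA within 25 nt and with occupancies of 0.0275 to 0.0429. The ferredoxin reductase gene arh1 and the DNA helicase gene pfh1 had 4 sites each, of which 1 and 0 had UGUA. The genes that follow had 3 sites each. In rsd1, an RNA-binding protein gene, all 3 sites had UGUA, while in the RNA helicase gene dbp2 and the replication factor C gene rfc4 none had. In lsm1, whose product acts in mRNA decapping, in the DNA repair gene rhp14 and in the uncharacterised SPCC4F11.05, 2 of 3 had. SPCC4F11.05 had the highest occupancies of the genes in this paragraph, 0.136 to 0.154 at an RNA-Seq coverage of 22 to 26, against 0.0755 to 0.0943 in rsd1 and 0.0345 to 0.0952 in pfh1. Neighbouring sites of a gene can come from the same reads. In all, 73 of the 684 sites lay in a cluster with another listed site less than 26 nt away, and the 684 sites fell in 649 clusters.

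**Figure D5:**
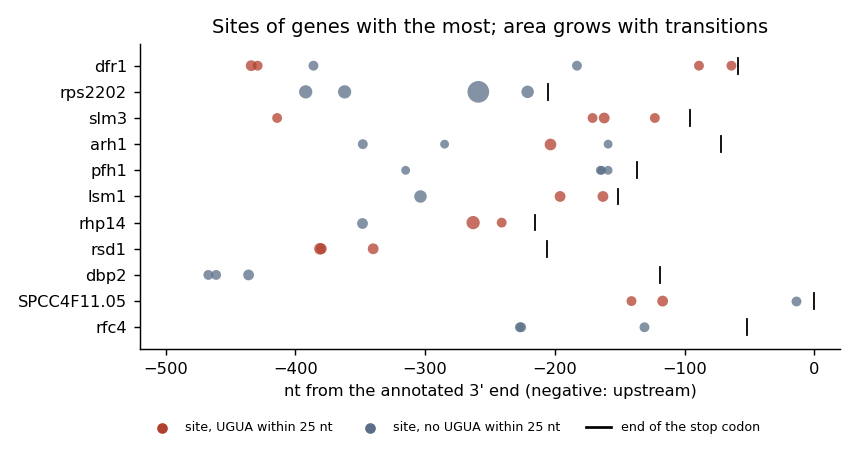
End-proximal CDS sites of 11 of the genes with the most, by distance in nt from the annotated 3′ end, with point area growing with transitions, colour showing UGUA within 25 nt, and a tick at the end of the stop codon. The 6 sites of dfr1 span 64 to 434 nt, and the largest point is the rps2202 site with 22 transitions.

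Highly expressed genes contributed sites of low occupancy. Of 134 genes with a stretch taken as ribosomal protein genes by symbol, 21 (15.7%, 10.5 to 22.8%) held a site, against 13.9% of all genes with a stretch. Their 29 sites made up 4.24% of the end-proximal CDS sites (2.97 to 6.02%), while these genes hold 2.62% of the uridines. Median RNA-Seq coverage at the 29 sites was 8909 and median occupancy 0.00112, and 3 of the 29 had UGUA within 25 nt. Among them were rpp101, rps1501 and rpl1101 with 2 sites each and summed transitions of 34, 25 and 24. Among sites with at least 3 transitions, the share in ribosomal protein genes was 11.1%. Wherever these genes are counted or left out, the set includes rpp1, annotated as a putative RNase P and RNase MRP subunit. The rpp1 site had an RNA-Seq coverage of 46 and an occupancy of 0.0435, the lowest coverage and highest occupancy of the 29.

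Of 18 genes of glycolysis and fermentation with a stretch, 5 held a site (27.8%, 12.5 to 50.9%), against 13.9% of all genes with a stretch, a share that lies within the interval of this list and of each list that follows. These included hexokinase hxk2 with 2 sites, and phosphoglycerate kinase pgk1, pyruvate decarboxylase pdc101 and aldolase fba1 with 1 each, at occupancies of 0.000607 to 0.0117. Of 7 genes of translation elongation factors 1 held a site (tef5, 4 transitions, occupancy 0.000214), and of 10 chaperone genes 2 did (ssa1 and sti1, 3 transitions each). In a list of 10 genes, most of them of amino acid transport and phosphate metabolism, 1 held a site (2 of 11 reads), and this was isp6, which encodes a vacuolar serine protease. None of the 7 core histone genes, 5 ubiquitin genes and 17 genes of 3′ end processing and termination with a stretch held a site, which allows shares of up to 35.4%, 43.4% and 18.4% (Wilson).

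Among the genes that the study follows individually, the chorismate synthase gene aro2 alone held an end-proximal CDS site, with 2 of 11 reads at 436 nt from the 3′ end and an occupancy of 0.00518. The genes adh1, rps401, pho1, set7, SPCC297.06C and seb1 had none. In adh1, rps401, pho1 and seb1 there were 7, 4, 4 and 5 sites in the 250 nt after the 3′ end, and 1, 2, 1 and 1 sites in the 3′ UTR. The annotated adh1 3′ UTR of 478 nt leaves little CDS within 500 nt of the end.

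Genes with an end-proximal CDS site had a site farther downstream somewhat more often than all genes with a stretch, a set that includes them. A site in the 3′ UTR or the 250 nt after the 3′ end was found in 266 of the 559 genes, 47.6% (43.5 to 51.7%), against 37.8% (36.3 to 39.3%) of all 4008 genes with a stretch. The 3′ UTR alone gave 27.5% against 21.2%, and the 250 nt after the end 33.6% against 26.5%. The remaining genes with an end-proximal CDS site had no listed site in either place. The part of transcript abundance in these differences was not tested.

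The gene next door also went with a small difference. Where the next coding gene downstream is on the opposite strand and so points toward the gene (convergent), density was 2.47 per 1000 uridines (2.24 to 2.71, 421 sites in 344 of 2203 genes), against 1.97 (1.75 to 2.23, 263 sites in 215 of 1801 genes) where it is on the same strand (tandem). RNA-Seq coverage at these sites had medians of 122 and 91, and its part was not tested. UGUA lay near 29.5% of the convergent and 30.8% of the tandem sites. CDS that overlaps a coding gene on the opposite strand had the same density as the rest (ratio 1.00, 0.756 to 1.30), and CDS that overlaps a non-coding gene on the opposite strand a ratio of 0.886 (0.758 to 1.03).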

How the data were processed

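The authors crosslinked and sequenced the PAR-CLIP library after RNase T1 digestion and deposited, per site, the count of reads with the transition, the count of reads covering it, a p-value (at most 0.00499, used here only to describe the list) and an occupancy. Occupancy is a ratio that the authors computed and deposited. At all 15824 sites it equals the transitions over a whole number (relative tolerance 1e-06), taken as RNA-Seq coverage with a maximum of 1. The submitters' processing notes name Bowtie 1.1.1, SAMtools and genome build ASM294v2. Calling thresholds are not given in the sources used here, and PCR duplicates could not be recognised.

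All 15789 nuclear sites fall on a T of their strand in ASM294v3, and 35 sites elsewhere were left out. Shares have Wilson intervals, density ratios exact binomial intervals and medians order-statistic intervals. Functions were tested on simulated data. Calculations and plots were made with Python 3.11.15, scipy 1.17.1, pandas 2.3.3, matplotlib 3.10.9 and numpy 2.4.6.

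Genes were named by rule: the 12 with the most sites, the 6 sites with the most transitions and the 6 with the largest transition share, the 4 sites with UGUA over the stop codon with the most reads, genes named by the study, 8 gene lists and the 5 leading tetramers. Of these genes, 1 is not reported here. The printed arh1 and dfr1 sequences were chosen after the values were seen, and rpp1 is named to describe the ribosomal protein set. Sites and lists were chosen with earlier results of these data known. The median of 13 reads per listed site limits single sites, so groups of sites were compared. Alternatives covered coverage, transitions, clusters, distance, motif window, gene overlap and gene groups.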

Additional observations from a re-analysis of the deposited data

How the results depend on the processing

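Of 81 alternative values, 49 stayed within the 95% interval of the value reported, 31 left it and 1 reversed. With each site weighted by its occupancy, the density ratio of end-proximal CDS over deep CDS was 0.958, that over start-proximal CDS 0.572 and that over the 3′ UTR 0.424. Among sites with at least the median coverage of all listed sites (13 reads), UGUA lay near 33.5% of sites (ratio to uridines 2.11), the density ratios were 1.40 over deep CDS, 0.808 over start-proximal CDS and 0.555 over the 3′ UTR, median occupancy was 0.0157, 9.03% of sites were in ribosomal protein genes and 6.36% of genes held a site. Among sites with at least 3 transitions, these were 36.9% (ratio 2.32), 1.78 over deep CDS, 0.543 over the 3′ UTR, an occupancy of 0.0174, 11.1% and 5.16%. With a limit of 250 nt, these were 34.2% (ratio 2.12), 1.29 over deep CDS, 0.720 over the 3′ UTR, 6.06% in ribosomal protein genes and 7.73% of genes. A motif window of 10 nt gave 21.8% (ratio 3.24), and uridines of genes with a site a ratio of 1.65. Genes with all 3 kinds of CDS stretch gave 1.45 over deep CDS. With 1 site per cluster the ratio over the 3′ UTR was 0.741, and without ribosomal protein genes 0.697. The ratio within 150 nt of the stop codon over farther was 1.97 at the median coverage and 1.70 at 3 transitions. The settings for that ratio, the removal of sites with over 80% of reads with the transition and the restriction to genes with an annotated 3′ UTR were chosen after seeing the data. The cause of these changes was not tested. No paired analysis was possible because only 1 PAR-CLIP library was used and no groups of samples were compared. The thresholds of the site list, transcript abundance and mapping of repeated sequence limit what these densities show.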

Other observations

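The run CGACGAU of the exg2, pvg5, scr1 and slm9 sites also occurred at sites elsewhere. It lay within 14 nt of 126 of the 15789 nuclear sites (0.798%), which held 15.8% of all transitions at nuclear sites. At these 126 sites the median share of reads with the transition was 40.0% (quartiles 16.7 and 77.6%), against 17.6% (12.0 and 28.6%) at the other 15663. Of the 126 sites, 6 were in end-proximal CDS, 13 in start-proximal CDS, 31 in deep CDS, 13 in a 3′ UTR and 63 elsewhere. The share exceeded 80% at 29 of the 126 sites and at 77 of the others, and occupancy was at its maximum at 36.5% against 5.50%. UGUA lay within 25 nt of 16.7% of the 126 sites and 43.6% of the others. The run was derived from end-proximal CDS sites, and whether these reads hold sequence added in library preparation was not tested, so their transition shares may not measure crosslinking.

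Just inside the limit of 500 nt, 476 to 500 nt from the 3′ end, were 41 sites, 14 of them near UGUA. Their median RNA-Seq coverage was 103. In the 25 nt just beyond the limit were 53 CDS sites, 18 of them near UGUA and with a median coverage of 141. Uridines were not counted on either side of the limit, so these counts give no densities.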
